A study of Mus musculus with 40 samples.

Results

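The genes described here are 38 genes of fatty acid oxidation and ketone body metabolism, out of 55359 gene identifiers counted by bulk RNA sequencing in mouse right kidney. They were taken as a list of names, chosen with earlier results of these data known. It covers mitochondrial and peroxisomal beta-oxidation, the carnitine shuttle, ketone body metabolism and lipid genes linked to the nuclear receptor PPARA. All 38 were found among the identifiers, and all 38 passed the filter on low counts that left 17345 genes for testing. The libraries came from 40 male C57BL/6 mice in 8 groups of 5. Vehicle mice were gavaged with sesame oil, and the other groups with 2,3,7,8-tetrachlorodibenzo-p-dioxin (TCDD) in the same oil at 0.03, 0.1, 0.3, 1, 3, 10 or 30 µg/kg. TCDD is a persistent chlorinated compound that activates the aryl hydrocarbon receptor, a ligand-activated transcription factor. Every mouse was dosed once in 4 days over 28 days, from 30 to 58 days of age, and carried no engineered allele that the labels name. The labels name no separate cultures or litters, so the p-values measure the spread between these libraries. Library totals ran from 15278423 to 25575317 gene counts.

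Fatty acids enter the cell with the help of carriers such as CD36 and are activated to acyl-CoA. Long chains cross into mitochondria as carnitine esters, are shortened there by repeated rounds of dehydrogenation, hydration, oxidation and thiolysis, and pass their electrons to the respiratory chain through the electron transfer flavoprotein. Peroxisomes shorten very long and branched chains by a parallel set of enzymes. Ketone bodies are made from the acetyl-CoA that results, chiefly in liver, and are used as fuel elsewhere. The proximal tubule of the kidney lives largely on fatty acid oxidation. PPARA, a nuclear receptor activated by fatty acids, is the textbook regulator of many of these genes and binds direct repeats of the letters AGGTCA spaced by 1 base.

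Proximal upstream sequences were available in RefSeq (GRCm38.p6) for 32 of the 38 genes, all but Angptl4, Vnn1, Crat, Acaa2, Decr1 and Hsd17b4. The 250 bases before the annotated start were searched on both strands for the direct repeat AGGTCANAGGTCA with up to 2 mismatches, since that repeat is the element PPARA is known to bind. It was present in 6 of the 32 genes, and in 3.24% of all 32851 promoters searched. A gene was counted when any of its promoters held a match, while the share of all promoters counts each promoter singly. A gene with several promoters has more chances of a match, so the shares here and below are not on the same footing. The 6 are Cat, Plin2, Cd36, Etfa, Acot4 and Acot12, and no member held the repeat without a mismatch (0.0335% of all promoters did). Each stretch is shown 5′ to 3′ on the strand of its gene, with the match in capitals; a match that reads as TGACCT-like letters lies on the opposite strand, and the match in Acot12 has 1 mismatch while the other 5 have 2.
Cat, minus strand, chr2:103485325-103485377: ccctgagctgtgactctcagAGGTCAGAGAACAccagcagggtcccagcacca
Plin2, minus strand, chr4:86670252-86670304: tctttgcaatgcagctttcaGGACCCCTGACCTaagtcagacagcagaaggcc
Cd36, minus strand, chr5:17835927-17835979: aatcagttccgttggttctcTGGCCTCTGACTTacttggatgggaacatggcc
Etfa, minus strand, chr9:55512288-55512340: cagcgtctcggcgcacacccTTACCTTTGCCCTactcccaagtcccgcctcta
Acot4, plus strand, chr12:84038346-84038378: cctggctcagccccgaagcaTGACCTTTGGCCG
Acot12, plus strand, chr13:91741391-91741443: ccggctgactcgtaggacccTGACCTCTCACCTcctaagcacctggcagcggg
The single half-site AGGTCA, which can overlap the repeat, was found in 8 of the 32 genes and in 14% of all promoters. The letters GCGTG, the core that the aryl hydrocarbon receptor is known to bind, were found in 12 of the 32 genes and in 28.2% of all promoters. These matches describe letters in a short window and are not measured binding sites.

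In vehicle kidneys the levels of the 38 genes, as CPM (counts scaled to a common library size) per kb of exon, spanned more than 2 orders of magnitude. Cat, which encodes the peroxisomal enzyme that breaks down hydrogen peroxide, was the highest at 394 ± 15.6 CPM per kb (SD, n = 5). Ehhadh, the bifunctional enzyme of peroxisomal beta-oxidation, followed at 205 ± 31.5 CPM per kb. Behind it came Acadm, the medium-chain acyl-CoA dehydrogenase (199 ± 45.9), and Acaa2, the mitochondrial thiolase (182 ± 40.1, both CPM per kb). Neighbours in this order mostly could not be separated: 24 of the 37 neighbouring pairs differed by less than the larger of their SDs, among them each step from Ehhadh to Acadl (160 ± 17.7 CPM per kb). The lowest were Angptl4 (7.76 ± 2.38), Etfb (5.03 ± 1.85) and Acot3 (3.16 ± 0.514 CPM per kb).

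**Figure D1:**
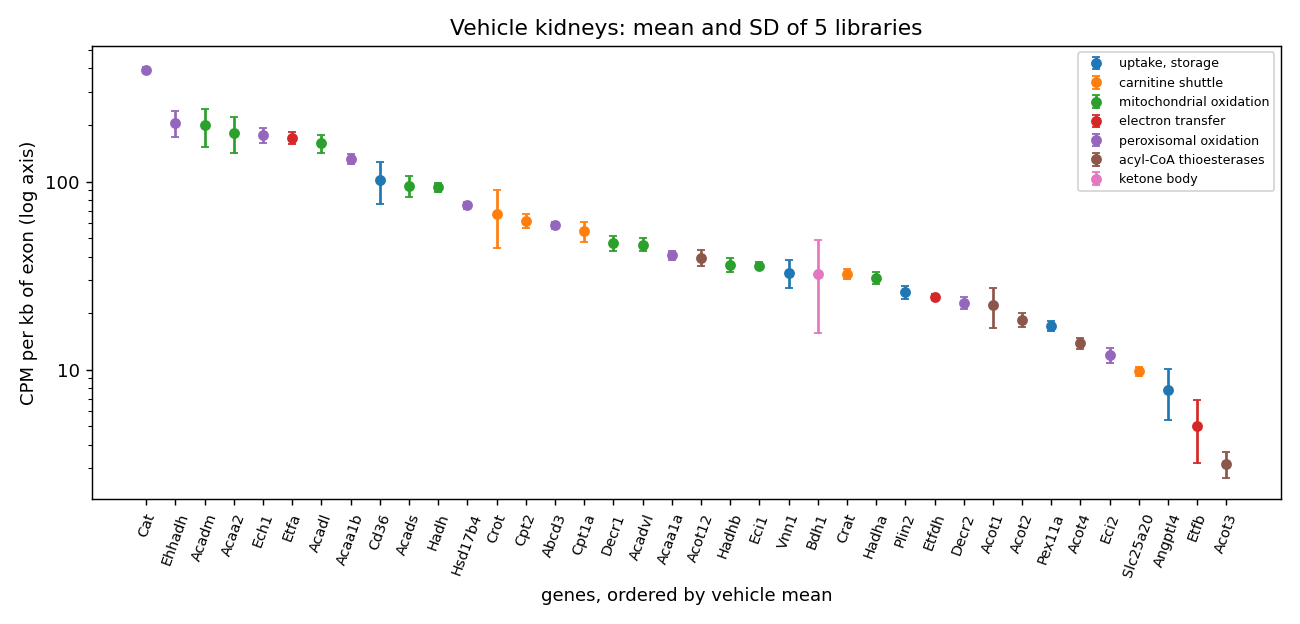
Level of each of the 38 genes in the 5 vehicle libraries, as CPM per kb of exon on a log axis, with points at the mean, bars at 1 SD and colours for the role class. Cat stands alone at 394, and the widest bar relative to its mean belongs to Bdh1 (32.3 ± 16.6).

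Some of these levels carry a counting limit. Etfb shares 58.2% of its exonic bases with other annotated genes and Acadvl 42.9%, in the latter case on the other strand, and the counting did not separate strands. Next came Acot3 (20.6%), Bdh1 (13.7%), Acaa1b (11.4%) and Acot4 (9.71%), and the other members shared less or none. Some of the stretches of 150 bases in the members' exons also occur in another gene. The share was highest in Etfb, at 30.6%. It was 11.8% in Hadhb, 11.3% in Acaa1b, 10.7% in Acot3 and 10.2% in Acot2. Lower shares were found in Acot1 (6.92%), Acaa1a (3.88%) and Slc25a20 (1.32%). Multiply mapped and ambiguous reads stayed out of the counts, so reads from those stretches could be set aside and these genes undercounted.

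Of the 38 genes, 22 were called at the highest dose, 1 at the dose below it and none further down. A gene was called when its adjusted p (edgeR's quasi-likelihood test, Benjamini-Hochberg over 17345 genes) was under 0.05. No member was called at 0.03, 0.1, 0.3, 1 or 3 µg/kg, where 0, 0, 0.00577, 0.513 and 1.09% of all genes were called. DESeq2 also called 0 of them at these doses, and 4, 2, 2, 3 and 4 members had an unadjusted edgeR p under 0.05. At 10 µg/kg 1 member was called, against 4.82% of all genes. At 30 µg/kg 22 of the 38 members were called (57.9%), against 15.9% of all genes. Of these, 19 rose (8.39% of all genes were called higher) and 3 fell (7.55% were called lower). The same shares of all genes apply to each class and marker list at 30 µg/kg below. The lists were chosen with earlier results of these data known. A list's share beside that of all genes, here and below, is therefore a description and not an independent test. The median log2 fold change over the 38 genes at 30 µg/kg was 0.33, with a range of -1.11 to 2.68, and the median over all genes tested was 0.01. At the doses below, the members' median lay between -0.03 and 0.07.

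**Figure D2:**
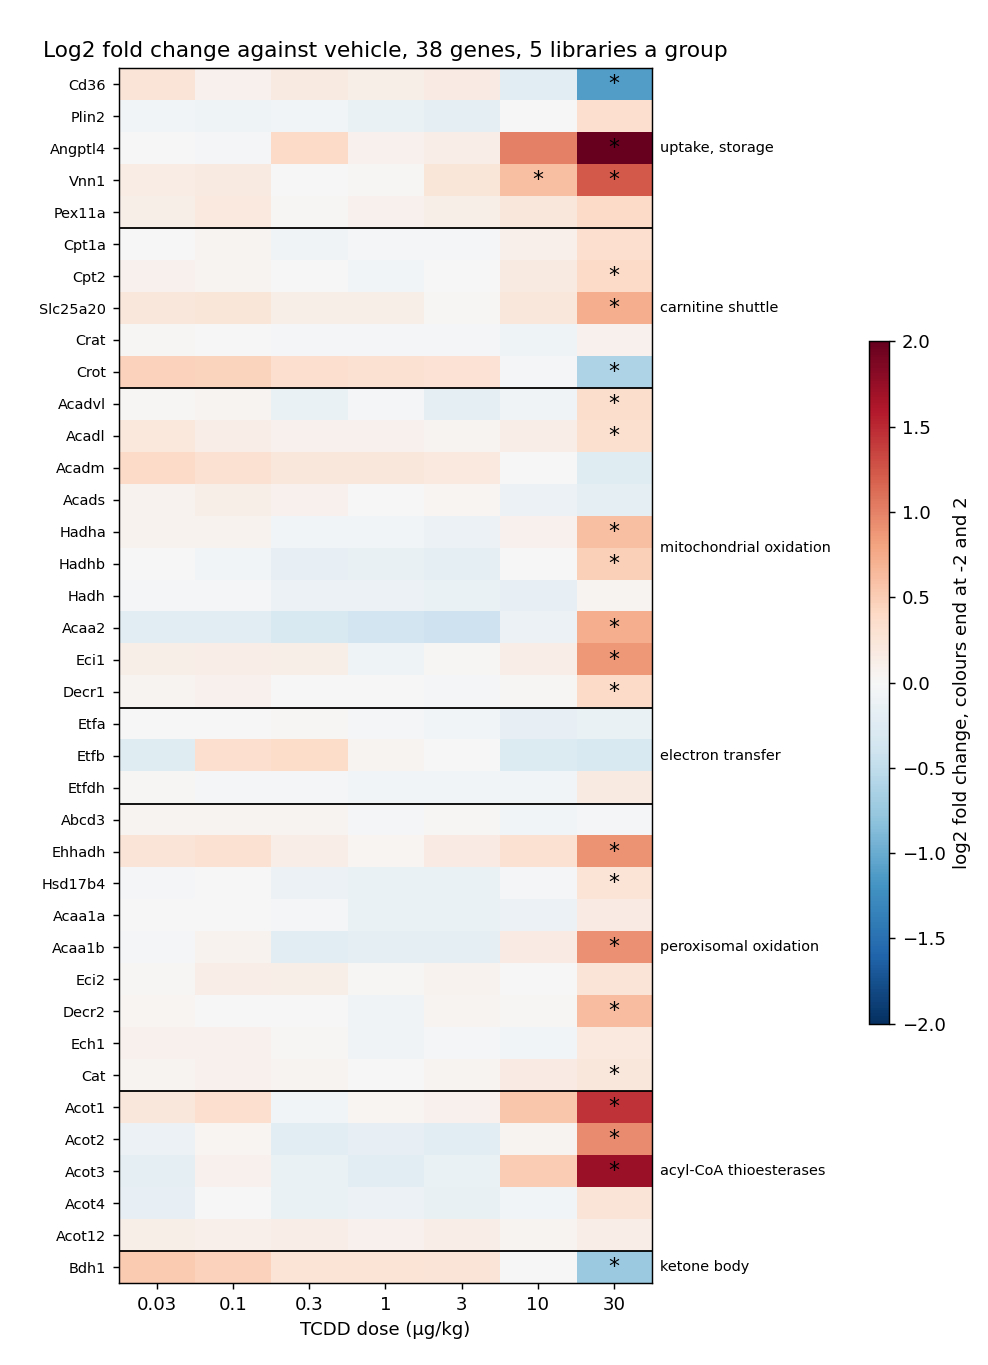
Log2 fold change against vehicle of the 38 genes (lines, grouped by role) at the 7 doses of TCDD (columns), from edgeR with 5 libraries a group; asterisks mark an adjusted p under 0.05. The column at 30 µg/kg holds 22 asterisks and the column at 10 µg/kg holds 1, at Vnn1.

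Before single genes are taken up, the spread among the 30 µg/kg libraries has to be stated. For each of the 19 genes that rose, replicates 3 and 4 both lay above the other 3 libraries of the group. The same held for 405 of the 1456 genes of the whole table that were called higher (27.8%). Summed over the 38 genes, the 30 µg/kg libraries stood at 8649, 9264, 14787, 12975 and 8960 CPM for replicates 1 to 5, and the vehicle libraries at 8404, 8304, 9284, 9511 and 9274 CPM. With replicates 3 and 4 both left out, 10 members were called instead of 22 (7 higher and 3 lower). The 3 lower were Cd36, Crot and Acot12. Acot12 was not among the 22, and Bdh1, which was, lost its call. With a fit on the 10 libraries of the 2 groups alone, 4 were called, all higher. The main fit shares a single estimate of spread per gene over all 8 groups. Its SE and adjusted p at 30 µg/kg can be too small for genes that vary more in that group. Cyp1a1, the classical target of the aryl hydrocarbon receptor, did not separate these libraries: it stood at 2884, 2088, 2074, 2996 and 2645 CPM in replicates 1 to 5, against 2.37 ± 1.25 CPM in vehicle (SD, n = 5).

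**Figure D3:**
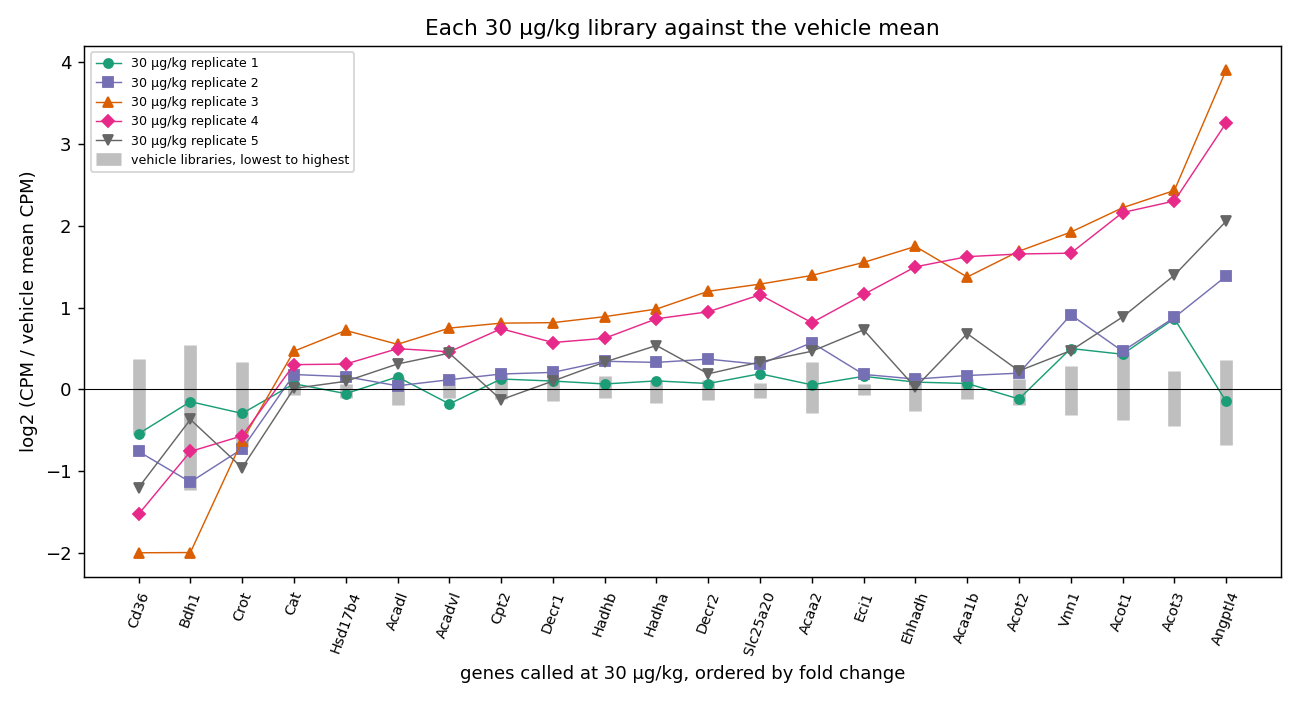
Each 30 µg/kg library (coloured points joined by lines, replicates 1 to 5) as log2 of its CPM over the vehicle mean, for the 22 genes called at that dose in order of fold change; grey bars span the vehicle libraries. Replicates 3 and 4 are the upper pair for all 19 genes that rose, and Angptl4 in replicate 1 (24.8 CPM) lies inside the vehicle range.

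Marker levels of kidney segments and of other cell types were summed in the same libraries. A score from the S1 and S2 proximal tubule markers was added as a term in 1 alternative fit. There no member lost its call at 30 µg/kg against vehicle, and Cpt1a was called as well. The part of the other marker lists in the results was not tested. Summed markers of the S3 segment of the proximal tubule were lowest in replicates 3 and 4 (1180 and 1849 CPM, against 4631, 3155 and 2275 in replicates 1, 2 and 5), and 5 of the 8 S3 markers were called lower at 30 µg/kg. Markers of the S1 and S2 segments stood at 13075, 17435, 16266, 10444 and 10061 CPM in replicates 1 to 5, so their sum did not follow the split, and 6 of 10 were called, 3 higher and 3 lower. No marker of the kidney lists was at 0 in every library of a group. The same held for the adipocyte, hepatocyte, macrophage, endothelial and red blood cell lists, so this alone does not tell the tissue. By level, S1 and S2 markers summed to 13522 to 18314 CPM in vehicle, against 86.1 to 241 CPM for hepatocyte markers. White adipocyte markers, which could come from fat around the kidney, summed to 269, 502, 269, 461 and 585 CPM in replicates 1 to 5 and to 134 to 341 CPM in vehicle. Of these 8 markers 2 were called, Lipe higher (log2 fold change 0.75) and Lep lower (-2.71, from 2.52 CPM in vehicle). Brown adipocyte markers summed to 168, 276, 198, 254 and 280 CPM, above the 102 to 120 CPM of vehicle, and 3 of 7 were called higher, among them Ucp1 (log2 fold change 3.17). Neither adipocyte list was highest in replicates 3 and 4. Macrophage markers summed to 206 to 253 CPM in vehicle and to 342 to 647 CPM at 30 µg/kg, with 7 of 8 called higher. Endothelial markers summed to 349 to 372 CPM in vehicle and to 477 to 536 CPM at 30 µg/kg, with 5 of 7 called higher. Red blood cell markers summed to 435 to 715 CPM in vehicle. At 30 µg/kg they summed to 1360, 582, 102, 255 and 186 CPM in replicates 1 to 5, and 0 of 5 were called. Hepatocyte markers summed to 86.1 to 241 CPM in vehicle and to 94.3 to 238 CPM at 30 µg/kg; Fgb (log2 fold change 3.34) and Serpina1a (1.73) were called higher and Ttr (-0.84) lower, of 6. Skeletal and heart muscle markers summed to 0.389 to 0.861 CPM in vehicle and to 1.02 to 5.83 CPM at 30 µg/kg, where replicate 3 was the highest. Of the 6 muscle markers Myh6, of heart muscle, was the 1 tested, and it was called higher (log2 fold change 3.48, edgeR adjusted p = 0.00013), while Myh4 was at 0 in vehicle and at 30 µg/kg. In whole kidney, fewer cells of a type and less RNA per cell cannot be told apart.

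Among the genes of uptake, storage and PPARA-linked lipid handling, 2 of 5 rose and 1 fell at 30 µg/kg. Angptl4 encodes a secreted inhibitor of lipoprotein lipase. It stood at 19.6, 33.1, 17.1, 32.3 and 35.2 CPM in the vehicle libraries and at 24.8, 71.6, 410, 262 and 114 CPM at 30 µg/kg. Replicate 1 lay inside the vehicle range and the other 4 above it, and the log2 fold change was 2.68 ± 0.47 (SE, n = 5 and 5; edgeR adjusted p = 0.000113). Vnn1, a pantetheinase that is a known PPARA target in liver, stood at 72.5, 64, 73.7, 89.7 and 96.3 CPM in vehicle and at 112, 149, 300, 251 and 110 CPM at 30 µg/kg. All 5 treated libraries lay above all 5 vehicle libraries, and the log2 fold change was 1.22 ± 0.18 (SE; edgeR adjusted p = 1.4e-05).

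Cd36, the fatty acid translocase of the cell surface, moved the other way. It stood at 296, 248, 429, 474 and 380 CPM in vehicle and at 251, 216, 91.6, 127 and 159 CPM at 30 µg/kg. Only replicate 1 of the treated libraries reached the vehicle range, and Cd36 fell by 1.11 ± 0.18 on the log2 scale (SE; edgeR adjusted p = 2.77e-05). Replicates 3 and 4, the highest for the genes that rose, were the lowest for Cd36. Its upstream sequence is one of the 6 with a degenerate direct repeat. Plin2, which coats lipid droplets and also holds such a repeat, was not called (log2 fold change 0.34, adjusted p = 0.0638), nor was Pex11a, a factor in peroxisome division (0.38, adjusted p = 0.0553).

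In the carnitine shuttle, 2 of 5 genes rose and 1 fell. Slc25a20, the carrier that exchanges acylcarnitine for carnitine across the inner mitochondrial membrane, stood at 48.9, 48.3, 46, 50.4 and 44.3 CPM in vehicle. At 30 µg/kg it stood at 54.3, 58.8, 116, 106 and 60 CPM, all above vehicle. Its log2 fold change was 0.73 ± 0.14 (SE; edgeR adjusted p = 0.000232), and 0.28 (adjusted p = 0.0639) without replicates 3 and 4. Cpt2, which turns acylcarnitine back into acyl-CoA inside mitochondria, stood at 143, 137, 143, 170 and 149 CPM in vehicle and at 162, 169, 260, 248 and 136 CPM at 30 µg/kg. Only replicates 3 and 4 lay above the vehicle range, and the log2 fold change was 0.39 ± 0.11 (SE; edgeR adjusted p = 0.0126), or 0.06 (adjusted p = 0.775) without those 2 libraries. Cpt1a, the outer-membrane enzyme that starts the shuttle and is held to be its rate-limiting step, was not called (log2 fold change 0.33, adjusted p = 0.055). Its libraries at 30 µg/kg were 368, 521, 739, 643 and 341 CPM, against 407, 460, 344, 402 and 466 CPM in vehicle.

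Crot, the peroxisomal carnitine octanoyltransferase that exports shortened chains, was lower at the highest dose. It stood at 301, 223, 239, 249 and 190 CPM at 30 µg/kg and at 238, 226, 461, 464 and 456 CPM in vehicle. Vehicle replicates 1 and 2 lay among the treated libraries, while vehicle replicates 3 to 5 lay above all of them. Crot fell by 0.62 ± 0.14 on the log2 scale (SE; edgeR adjusted p = 0.0022). With vehicle replicates 1 and 2 left out, the value was -0.94 (adjusted p = 2.46e-09, an alternative chosen after seeing the data). Crat, the carnitine acetyltransferase, was not called (0.09, adjusted p = 0.441).

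Mitochondrial beta-oxidation was the largest class, and 7 of its 10 genes rose at 30 µg/kg, with a class median log2 fold change of 0.37. Eci1, an isomerase needed for unsaturated chains, stood at 78, 77.5, 72.6, 79.8 and 72.7 CPM in vehicle and at 85, 86.4, 223, 170 and 126 CPM at 30 µg/kg. All treated libraries lay above vehicle, replicates 1 and 2 by a small margin, and the log2 fold change was 0.86 ± 0.16 (SE; edgeR adjusted p = 0.000191). Acaa2, which cleaves off acetyl-CoA, stood at 348, 335, 234, 234 and 225 CPM in vehicle and at 286, 409, 722, 484 and 380 CPM at 30 µg/kg. Replicate 1 of the treated group lay inside the vehicle range, and the log2 fold change was 0.73 ± 0.16 (SE; edgeR adjusted p = 0.00103). Vehicle replicates 1 and 2 were here the high ones, and without them the value was 0.98. Without treated replicates 3 and 4 it was 0.38 (adjusted p = 0.0759).

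Hadha and Hadhb encode the 2 subunits of the trifunctional protein, which carries out the last 3 steps of the spiral for long chains. Hadha stood at 290, 276, 240, 262 and 277 CPM in vehicle and at 289, 338, 531, 489 and 390 CPM at 30 µg/kg, with 4 of 5 libraries above vehicle. Its log2 fold change was 0.60 ± 0.09 (SE; edgeR adjusted p = 2.57e-06). Hadhb stood at 267, 253, 222, 229 and 223 CPM in vehicle and at 250, 303, 442, 368 and 301 CPM at 30 µg/kg, again with 4 of 5 above vehicle. Its log2 fold change was 0.48 ± 0.09 (SE; edgeR adjusted p = 8.05e-05). The pair moved by small amounts beside Angptl4, yet the 2 subunits, together with Vnn1 and Acot3, were called in all 20 alternatives tried at this dose.

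Of the other mitochondrial genes, Decr1 (2,4-dienoyl-CoA reductase) rose by 0.39, the very-long-chain dehydrogenase Acadvl by 0.35 and the long-chain dehydrogenase Acadl by 0.32 on the log2 scale (edgeR adjusted p = 0.00338, 0.00672 and 0.00265). Without replicates 3 and 4 none of these 3 was called, at 0.13, 0.15 and 0.17. The dehydrogenases for shorter chains did not pass. Acadm had a log2 fold change of -0.24 (adjusted p = 0.0661) and the short-chain Acads of -0.18 (adjusted p = 0.0892). With vehicle replicates 1 and 2 left out, a choice made after seeing the data, both were called lower, at -0.45 and -0.31. Hadh, the short-chain hydroxyacyl-CoA dehydrogenase, stood at 0.05 (adjusted p = 0.763).

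None of the 3 electron transfer genes was called at 30 µg/kg by edgeR or by DESeq2, and 2 of the 3 had an unadjusted edgeR p under 0.05. Etfa, a subunit of the flavoprotein, had the lowest p of the 3. It stood at 286, 316, 347, 316 and 301 CPM in vehicle and at 273, 284, 301, 274 and 301 CPM at 30 µg/kg. The ranges overlapped, with a log2 fold change of -0.13 ± 0.06 (SE; edgeR adjusted p = 0.12). Etfdh, the oxidoreductase that hands the electrons to ubiquinone, stood at 0.18 (adjusted p = 0.167) and Etfb at -0.30 (adjusted p = 0.536).

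In the peroxisome, 5 of 9 genes rose. Acaa1b, a peroxisomal thiolase, stood at 262, 248, 264, 238 and 282 CPM in vehicle and at 272, 291, 670, 796 and 415 CPM at 30 µg/kg. Replicate 1 lay inside the vehicle range, and the log2 fold change was 0.92 ± 0.18 (SE; edgeR adjusted p = 0.000477), or 0.33 (adjusted p = 0.079) without replicates 3 and 4. Its close copy Acaa1a was not called (0.17, adjusted p = 0.174). Ehhadh stood at 512, 509, 645, 697 and 693 CPM in vehicle and at 650, 667, 2050, 1725 and 621 CPM at 30 µg/kg. Replicates 1, 2 and 5 lay inside the vehicle range, and the log2 fold change of 0.90 ± 0.22 (SE; edgeR adjusted p = 0.0043) dropped to 0.08 (adjusted p = 0.804) with replicates 3 and 4 left out.

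Decr2, the peroxisomal dienoyl-CoA reductase, stood at 63.5, 65.3, 59.3, 57.5 and 55.1 CPM in vehicle and at 63.2, 77.7, 138, 116 and 68.6 CPM at 30 µg/kg. Of the treated libraries, 4 lay above vehicle, with a log2 fold change of 0.62 ± 0.12 (SE; edgeR adjusted p = 0.000176). Hsd17b4, the second bifunctional enzyme, stood at 255, 268, 238, 250 and 264 CPM in vehicle and at 246, 284, 420, 316 and 273 CPM at 30 µg/kg. Its log2 fold change was 0.27 ± 0.08 (SE; edgeR adjusted p = 0.0124). Cat rose by 0.22 on the log2 scale (edgeR adjusted p = 0.0116), from 1031 ± 40.7 to 1197 ± 155 CPM (SD, n = 5). Without replicates 3 and 4, Decr2 (0.21), Hsd17b4 (0.07) and Cat (0.09) were not called, with adjusted p of 0.0838, 0.625 and 0.442. Cat was the only one of the 14 genes called higher with an available upstream sequence that held the degenerate direct repeat. Eci2 (0.26), Ech1 (0.20) and the membrane transporter Abcd3 (-0.03) were not called, with adjusted p of 0.149, 0.14 and 0.872.

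The acyl-CoA thioesterases release free fatty acid from acyl-CoA. Acot2, Acot1, Acot4 and Acot3 lie side by side in this order in the annotation, and 3 of these 4 rose while Acot4 and Acot12, which lies on another chromosome, were not called. Acot1, the cytosolic form, stood at 68.8, 66.3, 87.7, 89 and 119 CPM in vehicle and at 116, 119, 401, 385 and 159 CPM at 30 µg/kg. Replicates 1 and 2 did not exceed the highest vehicle library, and the log2 fold change was 1.45 ± 0.24 (SE; edgeR adjusted p = 5.52e-05). Acot3, a peroxisomal form and the least abundant of the 38 genes per kb, stood at 10.8, 8, 12.7, 11.9 and 11 CPM in vehicle and at 19.8, 20, 58.6, 53.6 and 28.6 CPM at 30 µg/kg. All 5 treated libraries lay above vehicle, with a log2 fold change of 1.73 ± 0.24 (SE; edgeR adjusted p = 2.52e-06).

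Acot2, the mitochondrial form, stood at 39.8, 43.9, 35.4, 39.6 and 43.1 CPM in vehicle and at 37.2, 46.3, 130, 127 and 47.2 CPM at 30 µg/kg. The mean was carried by replicates 3 and 4, and the log2 fold change of 0.94 ± 0.21 (SE; edgeR adjusted p = 0.00183) was 0.11 without them (adjusted p = 0.614). Acot4 had a log2 fold change of 0.25 (adjusted p = 0.179) and Acot12 of 0.14 (adjusted p = 0.571). Both hold a degenerate direct repeat upstream.

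Bdh1, the mitochondrial enzyme that interconverts acetoacetate and beta-hydroxybutyrate, was the only member of the ketone body class, and it was lower at 30 µg/kg. It stood at 53.6, 57.3, 160, 182 and 174 CPM in vehicle and at 113, 57.2, 31.5, 74.1 and 97.2 CPM at 30 µg/kg. Vehicle replicates 1 and 2 lay among the treated libraries, and only 1 treated library lay below all vehicle libraries. Bdh1 fell by 0.75 ± 0.26 on the log2 scale (SE; edgeR adjusted p = 0.0415). That call was lost in 6 of the 10 fits that left out 1 library, and without 30 µg/kg replicates 3 and 4 (-0.50, adjusted p = 0.293). It was also lost with no filter on low counts, with the stranded column and in the fit on 10 libraries. Without vehicle replicates 1 and 2 the value was -1.21 (edgeR adjusted p = 6.22e-05). Those 2 libraries were left out because Bdh1 was low in them, so a larger fall was bound to follow. That value gives the call no added weight. In the 5 groups from 0.03 to 3 µg/kg, Bdh1 ran from 127 to 208 CPM, so every library there lay above vehicle replicates 1 and 2. Those 2 vehicle libraries were also lower in summed S3 markers (3540 and 3814 CPM, against 5775 to 6639 CPM in the other 3), and the part of that difference in the Bdh1, Crot and Acadm values was not tested.

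**Figure D4:**
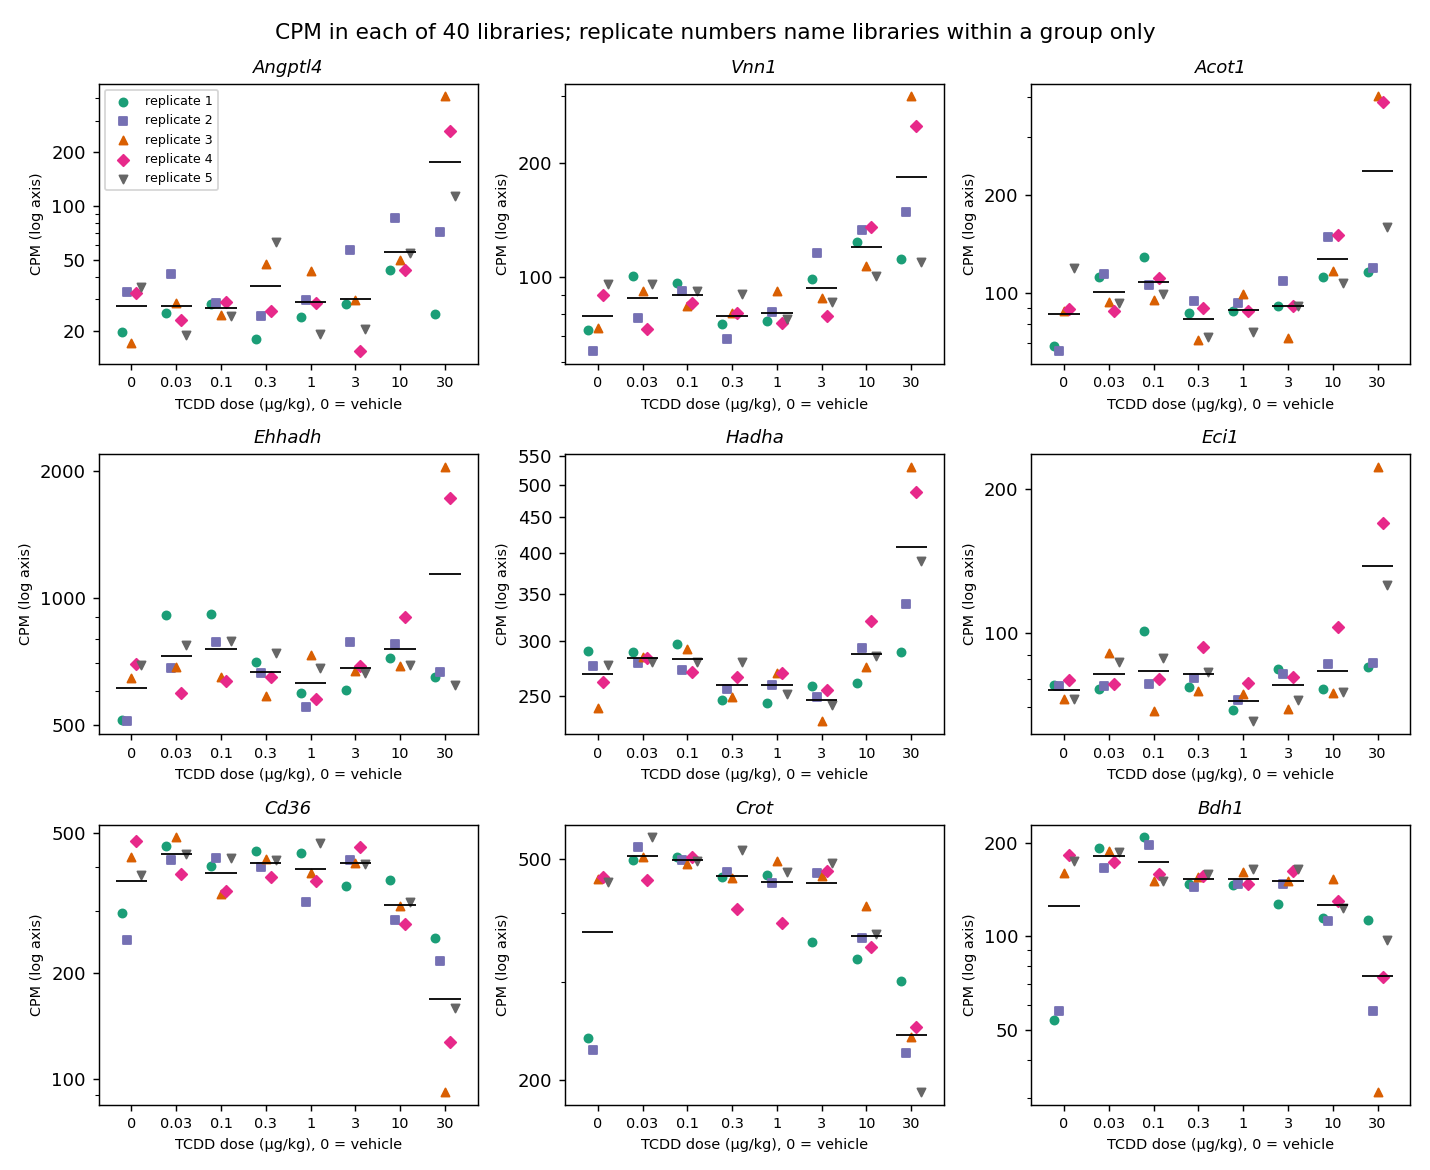
CPM on a log axis in each of the 40 libraries for 9 genes, by TCDD dose (0 is vehicle); symbols give the replicate number, which only names a library within its group, and bars the group mean. Angptl4 in 30 µg/kg replicate 3 reaches 410 CPM, and Bdh1 in vehicle replicates 1 and 2 (53.6 and 57.3 CPM) lies below every library from 0.03 to 3 µg/kg.

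At 10 µg/kg, Vnn1 was the member called. It stood at 124, 133, 107, 136 and 101 CPM, all above the vehicle libraries, and rose by 0.60 on the log2 scale (edgeR adjusted p = 0.0488). The call sat at the threshold and was lost in 8 of the 10 fits that left out 1 library. Without vehicle replicates 1 and 2 it was lost too, and Crot was called lower in its place (-0.34, adjusted p = 0.0414). Angptl4 stood at 43.5, 85, 50, 43.7 and 54.5 CPM, also all above vehicle, yet was not called (log2 fold change 1.01, adjusted p = 0.255). Counting genes by separation alone, 4 members had all 5 libraries at 10 µg/kg above all 5 vehicle libraries (Angptl4, Vnn1, Pex11a and Cat), against 4.32% of all genes. At 30 µg/kg it was again 4 members (Vnn1, Slc25a20, Eci1 and Acot3), against 3.59% of all genes. No member had all libraries below vehicle at either dose, against 1.82% and 2.83% of all genes.

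The step from 10 to 30 µg/kg was tested directly, and 17 of the 38 members differed (44.7%), against 2.70% of all genes. Of these, 15 were higher at 30 µg/kg (1.19% of all genes were) and 2 lower (1.52%). The 15 were Angptl4, Slc25a20, Acadvl, Hadha, Hadhb, Acaa2, Eci1, Decr1, Hsd17b4, Acaa1a, Acaa1b, Decr2, Acot1, Acot2 and Acot3, and the lower ones were Cd36 and Crot. By class they comprised 6 of 10 mitochondrial genes, 4 of 9 peroxisomal genes, 3 of 5 thioesterases and none of the electron transfer genes. Angptl4 differed by 1.67 on the log2 scale (edgeR adjusted p = 0.0352) and Slc25a20 by 0.50 (adjusted p = 0.0397). Cd36 was lower at 30 than at 10 µg/kg by a log2 difference of -0.88 (adjusted p = 0.00396) and Crot by -0.59 (adjusted p = 0.0154). Without 30 µg/kg replicates 3 and 4 1 member was called in this comparison, Acot12, lower at -0.39 (adjusted p = 0.041).

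A trend over the dose rank, from 0 for vehicle to 7 for 30 µg/kg, was found for 20 of the 38 members (52.6%), against 19.8% of all genes. It was upward for 14 (11.0% of all genes) and downward for 6 (8.84%). The downward genes were Cd36, Crot, Acadm, Acads, Etfa and Bdh1. A trend over the rank does not mean a steady fall from vehicle on. Bdh1, for example, had a log2 fold change against vehicle of 0.53 at 0.03 µg/kg, 0.01 at 10 µg/kg and -0.75 at 30 µg/kg. Without the 30 µg/kg group, 2 members had an adjusted p under 0.05, Vnn1 upward and Hadh downward. All of these comparisons except the step from 10 to 30 µg/kg share the vehicle libraries.

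The other genes of the same pathways gave a more mixed picture. Of 121 such genes on lists drawn up by role, 118 were tested and 45 were called at 30 µg/kg (38.1%, against 15.9% of all genes), 23 higher and 22 lower, and the log2 fold changes of the tested genes had a median of 0.06. At 10 µg/kg it was 6 of 118 (5.08%), close to the 4.82% of all genes. Ppara itself was not called at 30 µg/kg (log2 fold change 0.48 ± 0.21, SE; edgeR adjusted p = 0.112). It stood at 30.8, 67.3, 95.9, 65.6 and 37.5 CPM there and at 42.4 ± 6.48 CPM in vehicle (SD, n = 5). Among the regulators 3 of 18 were called (16.7%), close to the 15.9% of all genes: Creb3l3, a transcription factor of hepatic lipid metabolism, at 4.51 from a very low vehicle level (0.178 ± 0.106 CPM), and the fat cell regulator Pparg at 0.91, all as log2 fold changes. Ppard, a related receptor, fell by 1.00 on the log2 scale.

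Of 9 other genes of ketone body metabolism 5 were called at 30 µg/kg (55.6%, against 15.9% of all genes). Of these 5, 4 were lower (7.55% of all genes were) and 1 higher (8.39%). Those that fell included Aacs, which uses acetoacetate in the cytosol (log2 fold change -0.92), and the monocarboxylate carrier Slc5a8 (-0.77), which is also one of the S3 markers.

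Among uptake and activation genes 6 of 16 were called (37.5%, against 15.9% of all genes), 4 of them higher (25%, against 8.39%). Acsl1, which activates long-chain fatty acids, had a log2 fold change of 1.36 and stood at 381, 549, 1354, 1128 and 533 CPM in replicates 1 to 5, against 306 ± 84.9 CPM in vehicle (SD, n = 5), so replicates 3 and 4 again led. Slc27a1, a fatty acid transport protein, stood at 1.00 and the acetyl-CoA synthetase Acss2 at -0.48. Of the other mitochondrial genes 6 of 21 were called (28.6%, against 15.9% of all genes), 3 higher (14.3%, against 8.39%) and 3 lower. The 3 with the largest change had all risen, led by Pdk4, the kinase that shuts off pyruvate dehydrogenase (log2 fold change 3.43). Pdk4 stood at 32.9, 79.2, 721, 495 and 111 CPM, against 26.7 ± 7.15 CPM in vehicle (SD, n = 5). Next came the uncoupling protein Ucp2 (0.90) and Acacb (0.77), the carboxylase whose product inhibits the carnitine shuttle. Of the other peroxisomal genes 11 of 22 were called (50%, against 15.9% of all genes), 5 higher (22.7%, against 8.39%) and 6 lower. They were led by Hacl1, a lyase of alpha-oxidation (3.41), the acyl-CoA hydrolase Nudt19 (-1.06) and the bile acid conjugating enzyme Baat (1.03).

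Of 15 genes for the building of peroxisomes 3 were called (20%, against 15.9% of all genes), all lower, namely Pex2 (-0.30), Pex7 (-0.27) and Pex5 (-0.24), of which Pex5 and Pex7 are import receptors. Of 17 other PPARA-linked genes 11 were called (64.7%, against 15.9% of all genes), 8 higher (47.1%, against 8.39%) and 3 lower. Cyp4a14 and Cyp4a10, fatty acid omega-hydroxylases, had log2 fold changes of 5.60 and 1.90, and the male-typical Cyp4a12a of -2.28. Cyp4a14 stood at 141, 171, 3393, 2004 and 623 CPM in replicates 1 to 5, against 26.1 ± 11.2 CPM in vehicle (SD, n = 5). Genes of this family are similar in sequence, and reads that fit several of them stayed out of the counts.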

How the data were processed

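The labels describe total RNA from frozen right kidney with RNA integrity numbers of at least 7, and 1 library per mouse. The authors deposited whole-number counts per gene for each library, in an unstranded and 2 stranded columns. The submitters' processing notes name FastQC 0.11.7, Trimmomatic 0.39, STAR 2.7.3a and DESeq2, and the builds GRCm39 and mm10 without their roles; the annotation is not given in the sources used here. The unstranded column was used, since the sense share of the stranded columns was 50.4 to 51%. Summary lines without a gene stayed out of totals; they held 1.41 to 2.66% unmapped, 6.98 to 9.7% multiply mapped, 5.28 to 7.27% featureless and 5.4 to 5.98% ambiguous reads. A deposited table of log2-like values was not used. GENCODE M21 named 52083 of the 55359 identifiers and gave exon lengths; the 3276 without a name held 0.663% of counts.

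Tests used edgeR 4.0.16 (with limma 3.58.1, under R 4.3.3): filterByExpr, TMM factors (0.966 to 1.09), a robust quasi-likelihood F-test over all 40 libraries in 8 groups, contrasts of each dose with vehicle and of 30 with 10 µg/kg, and a fit over the dose rank. The biological coefficient of variation was 17.1%, fold changes used a prior count of 0.125, and each SE was the fold change over the root of F. The procedure was tested on simulated data drawn with the same spread per gene in every group. That test therefore does not cover the wider spread of the 30 µg/kg group. CPM were scaled by the TMM factors. Reads carry no molecular identifiers, so depth limits cover counting error only.

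Replicates are numbered in deposition order within a group and pair nothing across groups. The 38 members and all other lists were chosen with earlier results of these data known. In each role class the values of every vehicle and 30 µg/kg library are given for at most 4 called members with the largest fold change, or for the member with the lowest p; members called under 30 µg/kg or between 30 and 10 µg/kg are named, and of each further list the 3 called genes with the largest change, and Ppara; 1 gene that this rule names is not reported here. Library values beyond these (Cpt1a, Acsl1, Pdk4, Cyp4a14 and Cyp1a1) were added after seeing the data. Alternatives were RLE and upper-quartile factors, DESeq2 1.42.0, no filter, a stranded column, 2 added terms, a fit on 10 libraries, and libraries left out. The 2 added terms were the run of title numbers and a score from the S1 and S2 markers. Vehicle replicates 1 and 2 were left out together after seeing the data, for their low Bdh1.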

Additional observations from a re-analysis of the deposited data

Results flagged for a closer look

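Of 304 groups of 5 libraries (38 genes in 8 groups), 11 held a library set apart from the rest by more than 0.71 of the group's whole range, where chance alone gives about 15. None of the 11 lay in the 30 µg/kg group. The rule finds a lone library and can miss a pair that stands apart together. Replicates 3 and 4 at 30 µg/kg were such a pair for the genes that rose, so the rule does not speak to them. Etfb was set apart in 3 groups, at 9.68 CPM in vehicle replicate 3 (next 5.39), 15.4 CPM in 0.3 µg/kg replicate 4 (next 7.65) and 4.76 CPM in 3 µg/kg replicate 3 (next 6.08). Angptl4 reached 85 CPM in 10 µg/kg replicate 2, above the next library at 54.5 CPM. Crot stood at 355 CPM in 3 µg/kg replicate 1, below the next at 466 CPM. Acadvl stood at 141 CPM in vehicle replicate 2 (next 123). In 0.1 µg/kg replicate 1, both Eci2 (91.3 CPM, next 69.1) and Decr2 (70.6 CPM, next 59.4) were high. Acaa1a was low at 157 CPM in 0.3 µg/kg replicate 5 (next 177), and Acot2 at 32.9 CPM in 0.03 µg/kg replicate 4 (next 38.1). Acot3 was high at 12.2 CPM in 1 µg/kg replicate 3 (next 9.14).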

How the results depend on the processing

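At 30 µg/kg the count of members called stayed within 1.5 times the 22 under the other normalizations, tool, filter, count column and added terms, but not in the fit on the 10 libraries of the 2 groups, which called 4 members and 14 of the other pathway genes. That fit called 2 members at 10 µg/kg (Vnn1 and Acot3) and 0 between 30 and 10 µg/kg. It holds fewer libraries to estimate the spread, and it takes the spread from its 2 groups alone. The main fit shares the estimate with groups that varied less. The summed CPM of the members had an SD of 2780 at 30 µg/kg and of 193 to 589 in the other groups. The part of each difference in the drop to 4 members was not tested. Without both 30 µg/kg replicates 3 and 4, chosen after seeing the data, 10 members were called at 30 µg/kg, 1 between 30 and 10 µg/kg and 8 in the trend. Acot12 turned from 0.14 to -0.33 there (edgeR adjusted p = 0.00796); the cause was not tested. Without the 30 µg/kg group the trend held 2 members. The single call at 10 µg/kg became 0 with RLE factors, with no filter, with the stranded column and with the run of title numbers as a term, and 2 with DESeq2 (Vnn1 higher, Etfa lower), while without vehicle replicates 1 and 2 it was Crot, lower, in place of Vnn1; the cause was not tested. Leaving out each library in turn gave 17 to 30 members at 30 µg/kg, 0 to 1 at 10 µg/kg, 0 to 1 from 0.03 to 3 µg/kg (Acadm at 0.03 µg/kg without vehicle replicate 3) and 38 to 51 other pathway genes. It gave 7 to 25 members between 30 and 10 µg/kg, with 7 and 9 without 30 µg/kg replicates 3 and 4 and 10, 9 and 11 without 10 µg/kg replicates 1, 3 and 5. For the trend it gave 10 to 22, with 10 and 11 without 30 µg/kg replicates 3 and 4. Of the 22 members called at 30 µg/kg, 4 were called in all 20 alternatives (Hadha, Hadhb, Vnn1 and Acot3) and 18 were lost at least once. No paired analysis was possible because the labels give no replicate numbers that groups share. The least counted member in vehicle was Etfb at 5.86 CPM, in libraries of 15278423 to 25575317 counts.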
